A study of Mus musculus with 2 samples.

Results

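The 45 genes described here encode enzymes and enzyme subunits of central carbon metabolism, out of 52366 genes in the deposited table. They were listed by pathway, with earlier results of these data known, as 14 genes of glycolysis, 2 lactate dehydrogenase subunits, 7 genes at the entry of pyruvate into the mitochondrion, 7 of the pentose phosphate pathway, 11 of the tricarboxylic acid (TCA) cycle and 4 of NADP and malate side reactions. Their expression was measured in 24 single pseudoblastocysts, which are cavitated mouse embryos collected whether or not an inner cell mass (ICM) was present. All came from B6D2F1 oocytes fertilized in vitro with ICR sperm, all lost the zona pellucida to Actinase E, all were grown in human tubal fluid medium with serum albumin at lowered oxygen, and all were collected at 96 h postinsemination (hpi). The 6 1C embryos were whole zygotes freed of the zona at 5 hpi. The 6 2CB, 6 4CB and 6 8CB embryos each grew from 1 blastomere, isolated at the 2-cell stage (24 hpi), the 4-cell stage (48 hpi) or the 8-cell stage (48 hpi). The sample labels do not say which embryos share parents or arose from the same cleaving embryo, so the p-values below measure the spread between these embryos.

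Glycolysis turns glucose into pyruvate in the cytosol, and the pentose phosphate pathway branches off it to supply NADPH and ribose. Pyruvate then either becomes lactate through lactate dehydrogenase or enters the mitochondrion, where pyruvate dehydrogenase makes the acetyl-CoA that the TCA cycle oxidizes. Mouse embryos live on pyruvate and lactate during the first cleavages and take up and glycolyse much more glucose once the blastocyst forms, when hexokinase and phosphofructokinase act as control points.

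Levels are given as CPM: a gene's unique molecular identifiers (UMIs) divided by the total UMIs of its embryo and multiplied by 1000000. In CEL-Seq2 each captured transcript yields a tag at its 3′ end, so CPM has no length term and levels of different genes were compared on this scale. Total UMIs per embryo ranged from 70941 to 1507471, summing to 6658255 over 2CB with 4CB and to 2952530 over 1C with 8CB. The 1C and 8CB embryos formed 1 library pool and the 2CB and 4CB embryos the other. The study's unsupervised clustering divided the stages into the same 2 groups, so a difference between these groups and a difference between pools cannot be told apart. Markers of cell types differed along the same line. Of 16 trophectoderm markers tested, 11 were higher and 2 lower in 2CB and 4CB embryos, where 31.3% of all tested genes were higher and 24% lower. Of 7 ICM markers 4 were higher and 3 lower, and of 5 primitive endoderm markers 4 were higher and 1 lower. These counts follow in part from the filter on low counts described below, since 8 of the 11 higher trophectoderm markers, all 4 higher ICM markers and 3 of the 4 higher primitive endoderm markers reached its floor only among 2CB and 4CB embryos. The 17 listed trophectoderm markers summed to a median of 7176 CPM (4625 to 10865) in 2CB and 4CB embryos against 3539 CPM (1752 to 6440) in 1C and 8CB embryos, and without the most abundant, Ly6a, to 5661 against 1315 CPM. The 12 listed ICM markers went the other way, with a median of 562 CPM (409 to 1191) against 999.5 CPM (550 to 1996), and the 12 primitive endoderm markers had 1162 CPM (814 to 2433) against 927 CPM (640 to 1100). Without their most abundant genes, Nanog and Dab2, these medians were 446 against 622 CPM and 575 against 537 CPM. Of 6 stress and apoptosis genes tested 1 was higher and 3 lower, but their sum did not follow the pools: the 14 listed had a median of 674 CPM in 2CB embryos, 1649 CPM in 4CB, 1565 CPM in 1C and 1956 CPM in 8CB embryos. Of 12 oocyte and cumulus markers 1, Ooep, was tested and was higher, also with a pass through 2CB and 4CB embryos alone, and without it their sum had a median of 9.51 CPM against 50.9 CPM, while the cumulus genes Has2, Ptx3 and Amh had 0 UMIs. The defining ICM gene Pou5f1 had 33 UMIs in all 24 embryos. The part of cell makeup in the results below was not tested, and in whole embryos a change in cell numbers and a change of RNA per cell cannot be told apart.

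All 45 genes had at least 1 UMI, 22 had a UMI in every embryo, and between 28 and 44 of them were detected in a single embryo. Together they held 0.610% of all UMIs. Mitochondrial enzymes led the order of mean levels. Idh3b, the beta subunit of NAD-dependent isocitrate dehydrogenase, was first with a median of 962 CPM (range 665 to 1462). Mdh2, mitochondrial malate dehydrogenase, followed with a median of 723 CPM (377 to 1451). Pdha1, the E1 alpha subunit of pyruvate dehydrogenase, had a median of 414 CPM (198 to 1123), and Ogdh, the E1 subunit of the 2-oxoglutarate dehydrogenase complex, 355 CPM (118 to 650). Each of these 4 ranges overlapped the next in the order, while those of Idh3b and Ogdh did not meet. With Aldoa, the aldolase of most cells, at a median of 279 CPM, the first 5 genes made up 53.4% of the summed mean level of the 45. At the other end, Gapdh, glyceraldehyde-3-phosphate dehydrogenase, had 4 UMIs in all embryos, the lactate dehydrogenase genes Ldha and Ldhb 55 and 6, and the enolase Eno1 31. Each of these genes has near-identical annotated copies, described below, so its count may not rank its RNA.

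More of the enzymes were higher than lower in 2CB and 4CB embryos compared with 1C and 8CB embryos, led by Pfkl, Pgls, Pgk1, Tpi1 and Hk2, and the 3 that were lower were Hk1, Pgam1 and Pdha1. The test was edgeR's quasi-likelihood F test over all tested genes with Benjamini-Hochberg adjustment, and a gene was called at an adjusted p below 0.1. Of the 33 genes that passed the filter on low counts, 20 were higher, 3 were lower and 10 were not called. Over all 5940 tested genes 55.3% were called, 31.3% higher and 24% lower. The median log2 fold change was 0.78 over the 33 enzymes and 0.12 over all tested genes. Passing the filter took about 30.2 CPM in at least 6 embryos, and 9 of the 20 higher genes (Gpi1, Pfkl, Tpi1, Pgk1, Pkm, G6pdx, Pgls, Dlst and Fh1) reached that only among 2CB and 4CB embryos, so that their pass rests on the side where they were high. Hk1, which was called lower, and Pdhb, which was not called, reached it only among 1C and 8CB embryos. Of the 21 enzymes that reached it on both sides, 11 were higher and 2 lower, that is 52.4% and 9.52%, against 23.9% and 26.4% of the 3733 genes of all kinds that did so. For 6 enzymes (Hk2, Pfkl, Aldoa, Pgk1, Pgls and Fh1) the 2CB and 4CB embryos all exceeded the 1C and 8CB embryos, an arrangement held by 3.54% of tested genes, and for 0 enzymes was the order the other way round, against 2.21%. Of the 21 enzymes at the floor on both sides 2, Hk2 and Aldoa, were separated in this way (9.52%), against 2.06% of the genes of all kinds that did so. With each embryo thinned to 70941 UMIs, 14 enzymes passed the filter, of which 9 were higher and 2 lower, and on the 33 enzymes of the full depth 17 were higher and 2 lower. The shares of all tested genes above belong to the full-depth fit and are no background for these thinned counts.

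**Figure D1:**
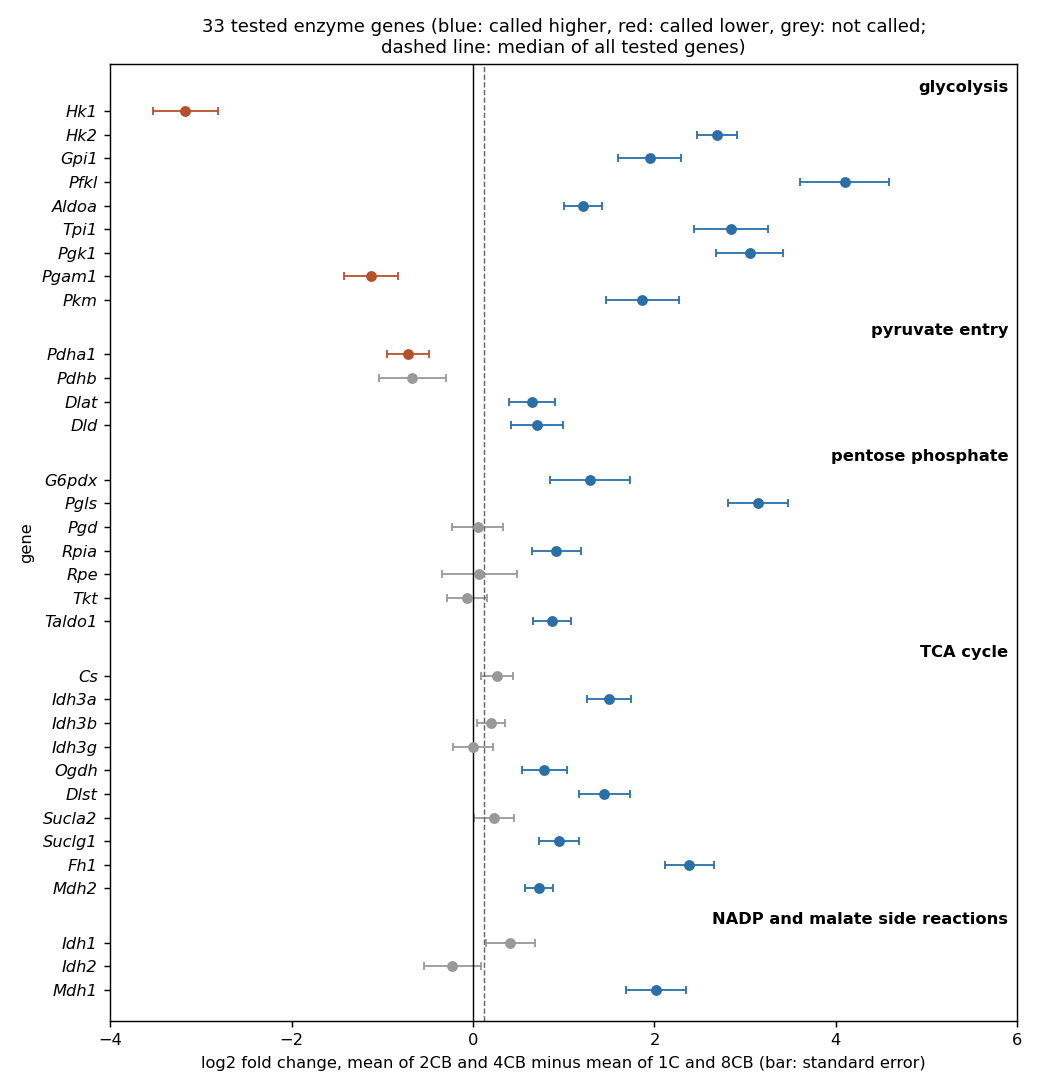
Log2 fold change, 2CB with 4CB minus 1C with 8CB embryos (horizontal axis), for the 33 tested enzymes (vertical axis), grouped by pathway, with the standard error as a bar and the median of all tested genes as a dashed line. 20 enzymes are called higher, 3 (Hk1, Pgam1 and Pdha1) lower and 10 are not called. Pfkl is farthest to the right at 4.10 and Hk1 farthest to the left at -3.17.

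The genes for the 2 hexokinases moved in opposite directions. Hexokinase phosphorylates glucose as it enters the cell. Hk1 encodes the form found in most tissues and Hk2 the form of insulin-responsive and fast-growing tissues. Hk1 lay between 48.5 and 321 CPM with a median of 198 in the 12 1C and 8CB embryos, and between 0 and 51.8 CPM with a median of 22.4 in the 12 2CB and 4CB embryos. The single overlap came from 1C embryo 4 at 48.5 CPM, which lay below 1 4CB embryo. Hk1 was 9.01-fold lower in 2CB and 4CB embryos (log2 fold change -3.17 ± 0.36 (SE), edgeR adjusted p = 2.55e-08). Hk2 ranged from 21.8 to 72.9 CPM with a median of 48.5 in 1C and 8CB embryos and from 152 to 440 CPM with a median of 338 in 2CB and 4CB embryos. The sides did not overlap, and Hk2 was 6.44-fold higher in 2CB and 4CB embryos (log2 2.69 ± 0.22, adjusted p = 6.97e-11).

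Read as a share, Hk2 made up a median of 93.3% of the hexokinase UMIs of a 2CB or 4CB embryo (range 83.3% to 100%) and 18.0% in a 1C or 8CB embryo (9.46% to 53.8%). All 12 embryos of the first kind lay above all 12 of the second. A share within an embryo does not depend on its total, and after each embryo was thinned to the smallest total the medians were 94.6% and 15.2%. By stage the median share was 17.4% for 1C, 22.4% for 8CB, 95.5% for 2CB and then 91.9% for 4CB embryos. 1C embryo 4 was the highest of the lower side at 53.8%, from 6 Hk1 and 7 Hk2 UMIs. Leaving out 1C embryos 4 and 5 gave 21 higher and 3 lower enzymes in place of 20 and 3. The share of all tested genes in that fit is not given.

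**Figure D2:**
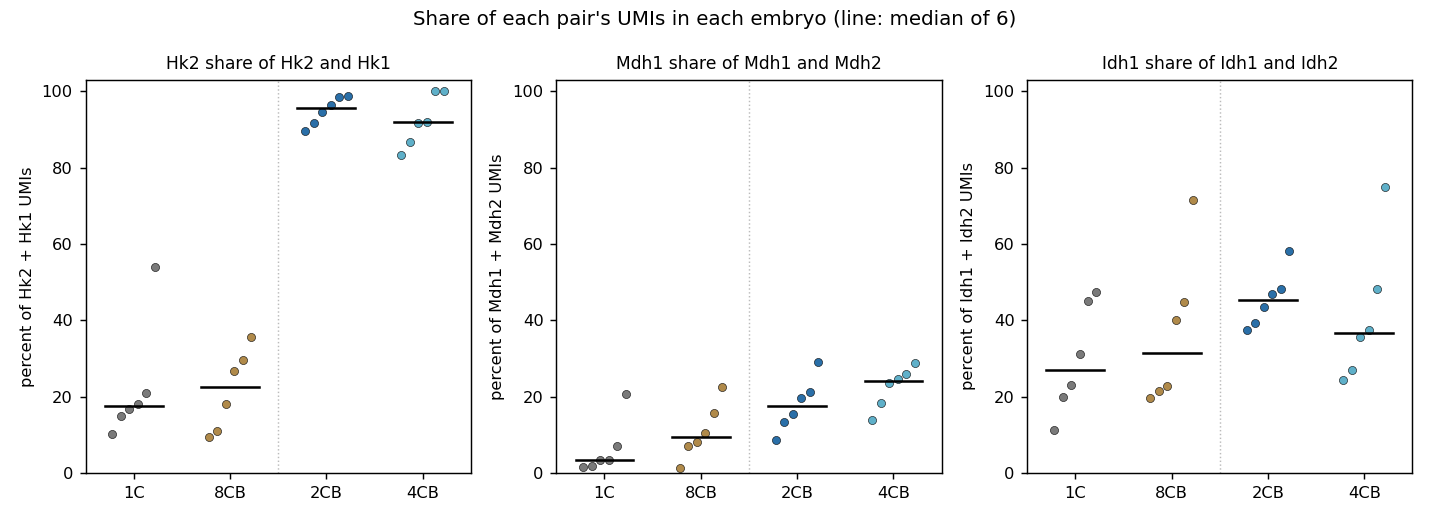
Share of 1 gene in the UMIs of a pair (vertical axes, percent) in each embryo by stage (horizontal axes), with the median of 6 embryos as a line. The panels show Hk2 among Hk1 and Hk2, cytosolic Mdh1 among Mdh1 and Mdh2, and cytosolic Idh1 among Idh1 and Idh2. Hk2 shares of 2CB and 4CB embryos lie at 83.3% or more and those of 1C and 8CB embryos at 53.8% or less, while the other 2 shares overlap.

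To show the promoters of genes that moved apart, the 250 bases before the RefSeq start of Hk2, of Pgk1 and Pfkl, which also rose, and of 2 starts of Hk1, which fell, are given (GRCm38.p6, from RefSeq, read on the strand of the gene). Capitals mark ACGTG or its reverse complement CACGT, the core that hypoxia-inducible factors and E-box factors can share. Hk2 at chr6:82774455-82774704 (minus strand) and Pgk1 at chrX:106186850-106187099 (plus strand) hold 2 matches each, while Pfkl at chr10:78009808-78010057 and Hk1 at chr10:62379909-62380158 and at chr10:62340422-62340671 (all minus strand) hold 0. A gene that rose and a gene that fell thus both lacked these letters.
Hk2: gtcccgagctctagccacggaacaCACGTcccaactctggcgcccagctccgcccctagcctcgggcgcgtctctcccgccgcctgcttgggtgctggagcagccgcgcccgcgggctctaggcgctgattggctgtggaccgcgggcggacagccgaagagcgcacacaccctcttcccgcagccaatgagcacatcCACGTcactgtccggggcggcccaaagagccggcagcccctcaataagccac
Pgk1: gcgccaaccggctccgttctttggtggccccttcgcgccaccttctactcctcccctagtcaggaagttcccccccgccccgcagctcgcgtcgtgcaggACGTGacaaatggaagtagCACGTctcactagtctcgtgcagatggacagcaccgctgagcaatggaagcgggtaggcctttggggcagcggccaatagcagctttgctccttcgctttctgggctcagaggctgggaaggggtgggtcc
Pfkl: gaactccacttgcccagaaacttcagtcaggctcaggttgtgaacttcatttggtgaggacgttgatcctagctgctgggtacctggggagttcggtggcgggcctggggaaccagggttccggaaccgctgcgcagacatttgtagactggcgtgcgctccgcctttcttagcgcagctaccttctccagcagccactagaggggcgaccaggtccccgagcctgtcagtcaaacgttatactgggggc
Hk1, first start: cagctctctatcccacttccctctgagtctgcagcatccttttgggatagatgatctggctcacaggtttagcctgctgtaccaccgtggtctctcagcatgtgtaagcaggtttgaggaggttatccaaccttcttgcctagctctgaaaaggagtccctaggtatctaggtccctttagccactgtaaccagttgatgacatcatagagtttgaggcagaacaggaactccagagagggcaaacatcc
Hk1, second start: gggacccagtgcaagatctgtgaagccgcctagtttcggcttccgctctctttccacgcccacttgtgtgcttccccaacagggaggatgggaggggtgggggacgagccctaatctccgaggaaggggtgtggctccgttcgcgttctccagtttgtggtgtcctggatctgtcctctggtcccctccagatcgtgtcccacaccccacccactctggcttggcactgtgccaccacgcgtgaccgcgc
RefSeq promoters were found for 43 of the 45 enzymes. ACGTG on either strand was in the 250 bases of 13 of these 43 (30.2%) and of 18.5% of all 27025 genes in that table, and GCGTG, counted in the same way, was in 27 of 43, Hk1 and Pfkl among them, against 30.9%. CACGTG, which contains ACGTG, was in 4 of 43 against 6.86%. Of the 13 genes with ACGTG 9 were tested: Hk2, Pgk1, Aldoa, Pkm, Mdh1 and Ogdh, which rose, Pgam1, which fell, and Pdhb and Idh3g, which were not called. Among all 33 tested enzymes 60.6% rose, and among all tested genes 31.3%, so these 9 showed no particular tendency among the enzymes. Pgk1 and Pkm had passed the filter through 2CB and 4CB embryos alone. A gene counted if any of its starts held the letters, and the 43 enzymes had 63 starts. All genes were the background, not matched for number of starts, base makeup or expression, so these shares show no particular link to the enzymes. A match is a run of letters and was not tested as a binding site.

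Beside Hk2, the glycolytic genes Pfkl, Pgk1, Tpi1, Aldoa, Gpi1 and Pkm were higher in 2CB and 4CB embryos, of which Aldoa alone had passed the filter on both sides. Pfkl, the liver-type subunit of phosphofructokinase, had 258 UMIs in 2CB and 4CB embryos and 8 in 1C and 8CB embryos. It ranged from 18.1 to 98.8 CPM (median 40.6) in the former and from 0 to 16.2 CPM (median 1.36) in the latter, 6 of which had no UMI. Every 2CB and 4CB embryo lay above the 16.2 CPM of 1C embryo 4 (log2 4.10 ± 0.49, edgeR adjusted p = 7.64e-08). Because its lower side rests on 8 UMIs, the size of this change is known only roughly.

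Pgk1, phosphoglycerate kinase, which makes ATP in the second part of the pathway, ranged from 125 to 505 CPM with a median of 269 in 2CB and 4CB embryos. In 1C and 8CB embryos it ranged from 0 to 109 CPM with a median of 26.8, so the sides did not overlap and the gene was 8.28-fold higher in the former (log2 3.05 ± 0.37, edgeR adjusted p = 8.07e-08). Tpi1, triosephosphate isomerase, ranged from 39.5 to 182 CPM (median 76.1) against 0 to 47.7 CPM (median 5.60). Only 8CB embryo 1, at 47.7 CPM, reached the other side, and Tpi1 was 7.17-fold higher in 2CB and 4CB embryos (log2 2.84 ± 0.41, adjusted p = 1.51e-06). Aldoa ranged from 290 to 536 CPM (median 350) against 54.9 to 268 CPM (median 149), without overlap (log2 1.21 ± 0.21, adjusted p = 2.03e-05).

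Gpi1, glucose-6-phosphate isomerase, and Pkm, the muscle-type pyruvate kinase that closes the pathway, also rose. Gpi1 had a median of 55.8 CPM (31.9 to 105) against 13.9 CPM (0 to 39.5), and Pkm 47.0 CPM (9.01 to 97.7) against 11.5 CPM (0 to 42.6). Both pairs of ranges overlapped, and for Pkm 2CB embryo 6 at 9.01 CPM and 4CB embryo 2 at 38.3 CPM lay below the highest 8CB embryos. The log2 fold changes were 1.95 ± 0.35 for Gpi1 and 1.87 ± 0.40 for Pkm (edgeR adjusted p = 3.51e-05 and 3.24e-04). Parts of the Gpi1 3′ end lie at 95% identity or more in transcripts of 5 other annotated genes that hold 1553 UMIs, so the split of reads between these is uncertain.

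Pgam1, phosphoglycerate mutase, which acts after Pgk1, fell in 2CB and 4CB embryos. It ranged from 6.59 to 67.8 CPM with a median of 32.1 in 2CB and 4CB embryos and from 24.3 to 98.1 CPM with a median of 81.6 in 1C and 8CB embryos. The ranges overlapped, with 1C embryo 4 (24.3 CPM) and 8CB embryo 5 (25.6 CPM) far below the others of their side. The log2 fold change was -1.12 ± 0.29 (edgeR adjusted p = 0.00231), and after thinning to the smallest total it was -0.70 with an adjusted p of 0.235. All 9 tested glycolytic genes were thus called, 7 higher and 2 lower, where 31.3% and 24% of all tested genes were. This count and the median log2 fold change of 1.95 follow in part from the filter, since only Hk2, Aldoa and Pgam1 reached it on both sides.

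**Figure D3:**
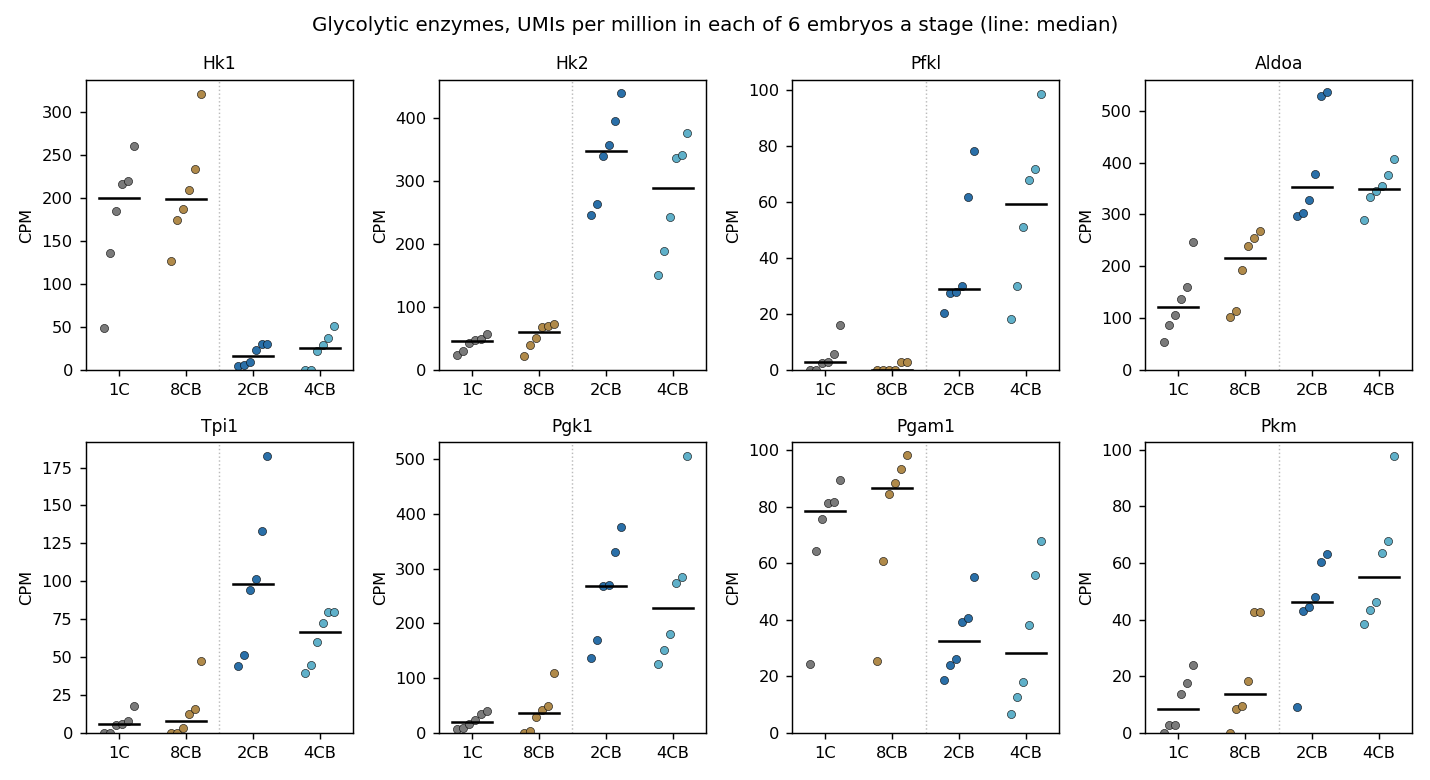
CPM (vertical axes) of 8 glycolytic enzymes in each embryo by stage (horizontal axes), with the median of 6 embryos as a line and a dotted line between the library pools. Hk2, Pfkl, Aldoa and Pgk1 of all 2CB and 4CB embryos lie above those of all 1C and 8CB embryos, and Hk1 and Pgam1 are lower there with some overlap.

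The other 5 glycolytic genes and both lactate dehydrogenase genes were too low to test and are given as counts, with ratios of pooled CPM and exact 95% intervals that cover counting error only. Pfkm, the muscle-type phosphofructokinase subunit, had 39 UMIs in 2CB and 4CB embryos and 7 in 1C and 8CB embryos (ratio 2.47, 1.09 to 6.55), of which 8CB embryo 5 held 4, and without that embryo the ratio was 5.54. Pfkp, the platelet-type subunit, had 88 and 21 (ratio 1.86, 1.14 to 3.15), and 748 of its exonic bases overlap Pitrm1 on the opposite strand. Of the 385 phosphofructokinase UMIs of 2CB and 4CB embryos 67.0% were Pfkl, against 22.2% of only 36 in 1C and 8CB embryos, where Pfkp held 58.3%.

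Aldoc, the brain-type aldolase, had 22 UMIs in 2CB and 4CB embryos and 0 in 1C and 8CB embryos. Against a floor of 3 counts over the latter group the ratio was 3.25. The exact 95% interval of the ratio, which also covers the counting error of the 22 UMIs, begins lower, at 2.43. Aldoa held 99.1% of the aldolase UMIs in 2CB and 4CB embryos and 100% in 1C and 8CB embryos. Eno1 had 28 and 3 UMIs (ratio 4.14, 1.28 to 21.3), but all 3 came from 1C embryo 5, without which that side had 0. A further 4 annotated copies of its 3′ end held 22 UMIs.

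Gapdh had 2 UMIs on each side, and had the fewest UMIs of the 45 genes, although the steps on either side of it, Tpi1 and Pgk1, had 693 and 1761. Its 3′ end is shared at 95% identity or more by 99 annotated genes, 92 of them pseudogenes, and these held 579 UMIs, 507 in 2CB and 4CB embryos and 72 in 1C and 8CB embryos. The Gapdh value therefore gives no measure of the enzyme's RNA. Ldha, the muscle-type lactate dehydrogenase subunit, had 48 and 7 UMIs (ratio 3.04, 1.37 to 7.97), of which 1C embryo 5 held 4, and without that embryo the ratio was 6.27. Ldhb, the heart-type subunit, had 3 and 3. Ldha has 6 annotated copies at this identity and Ldhb 1, and those copies held 0 UMIs. How reads that match both a gene and its copies were counted is not given in the sources used here. The Ldha, Ldhb and Eno1 counts and ratios may therefore also be poor measures of their RNA.

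At the entry of pyruvate, the subunits of the pyruvate dehydrogenase complex did not move together. Pdha1 ranged from 198 to 595 CPM with a median of 392 in 2CB and 4CB embryos and from 243 to 1123 CPM with a median of 742 in 1C and 8CB embryos. The ranges overlapped widely, and 1C embryos were split between 4 at 405 CPM or less and 2 at 942 or more. Pdha1 was 1.65-fold lower in 2CB and 4CB embryos (log2 -0.72 ± 0.23, edgeR adjusted p = 0.0107).

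Pdhb, the E1 beta subunit, had a log2 fold change of -0.67 ± 0.37 that was not called (edgeR adjusted p = 0.138). Without 1 of 1C embryo 1, 1C embryo 4, 2CB embryo 2, 4CB embryo 4 or 8CB embryo 5 it was called, with values from -0.77 to -0.95. Dlat, the E2 subunit, rose by 0.65 ± 0.26 (adjusted p = 0.0368), from a median of 29.7 CPM (14.4 to 89.7) in 1C and 8CB embryos to 55.7 CPM (41.8 to 82.9). Its lower side held 1 high value, the 89.7 CPM of 8CB embryo 1. Dld, the E3 subunit that this complex shares with other dehydrogenases, rose by 0.70 ± 0.29 (adjusted p = 0.0456), from a median of 50.6 to 71.7 CPM. The Dld call was lost without any 1 of 1C embryo 3, 2CB embryo 3, 4CB embryo 1 or 4CB embryo 5 (values from 0.56 to 0.58). Without the filter on low counts neither Dlat (0.62, adjusted p = 0.213) nor Dld (0.69, adjusted p = 0.103) was called. After thinning to the smallest total they stood at 0.71 and 0.64, with adjusted p of 0.139 and 0.142.

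Of the pyruvate dehydrogenase kinases, which switch the complex off, Pdk1 had 19 UMIs in 2CB and 4CB embryos and 2 in 1C and 8CB embryos (ratio 4.21, 1.02 to 37.3). A single 4CB embryo, number 6, stood at 52.7 CPM and the other 11 of that side at 3.83 CPM or less. The ratio was 2.50 without it, and 7.37 and 7.45 without 1C embryo 3 or 5. Pdk3 had 4 and 2 UMIs. Pcx, pyruvate carboxylase, which makes oxaloacetate from pyruvate, had 37 and 13 (ratio 1.26, 0.656 to 2.59).

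In the pentose phosphate pathway the first steps of the oxidative branch rose and its last step did not pass the test. G6pdx, the X-linked glucose-6-phosphate dehydrogenase that commits glucose to the pathway, ranged from 12.8 to 53.3 CPM (median 36.3) in 2CB and 4CB embryos and from 0 to 34.6 CPM (median 6.72) in 1C and 8CB embryos. The ranges overlapped, and the log2 fold change was 1.29 ± 0.44 (edgeR adjusted p = 0.0157). G6pdx shares 418 exonic bases with Ikbkg on the opposite strand, which had 962 UMIs. Pgls, 6-phosphogluconolactonase, ranged from 67.8 to 240 CPM (median 106) against 0 to 29.2 CPM (median 11.4). No embryos overlapped and Pgls was 8.83-fold higher in 2CB and 4CB embryos (log2 3.14 ± 0.33, adjusted p = 8.45e-09). Pgd, 6-phosphogluconate dehydrogenase, had medians of 56.6 and 60.6 CPM and a log2 fold change of 0.05 ± 0.28 (adjusted p = 0.901).

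The non-oxidative branch, which interconverts sugar phosphates, was mixed in the same way. Rpia, ribose-5-phosphate isomerase, rose by 0.92 ± 0.27 (edgeR adjusted p = 0.00534), from a median of 37.5 CPM (8.02 to 76.8) to 74.3 CPM (38.5 to 97.9), and after thinning it stood at 0.84 with an adjusted p of 0.130. Taldo1, transaldolase, rose by 0.87 ± 0.21 (adjusted p = 0.00117), from a median of 80.9 CPM to 166 CPM. Tkt, transketolase, which works in turn with Taldo1 and was the most abundant gene of the pathway at a median of 158 CPM, had a log2 fold change of -0.07 ± 0.22 (adjusted p = 0.826). Rpe, ribulose-phosphate epimerase, stood at 0.07 ± 0.42 (adjusted p = 0.908). Of the 7 genes 4 rose and 3 were not called, with a median log2 fold change of 0.87, where 31.3% of all tested genes were higher. G6pdx and Pgls had passed the filter through 2CB and 4CB embryos alone.

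Within the TCA cycle, 6 of the 10 tested genes rose, 4 were not called and 0 fell, with a median log2 fold change of 0.76, where 31.3% of all tested genes were higher and 24% lower. Dlst and Fh1 had passed the filter through 2CB and 4CB embryos alone. Fh1, fumarase, showed the largest change. It ranged from 32.9 to 111 CPM with a median of 69.4 in 2CB and 4CB embryos and from 6.07 to 25.2 CPM with a median of 11.5 in 1C and 8CB embryos. The sides did not overlap and Fh1 was 5.22-fold higher in 2CB and 4CB embryos (log2 2.39 ± 0.27, edgeR adjusted p = 3.07e-08).

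The 3 subunits of NAD-dependent isocitrate dehydrogenase did not move alike. Idh3a, the catalytic alpha subunit, ranged from 54.4 to 172 CPM (median 107) in 2CB and 4CB embryos against 14.1 to 59.7 CPM (median 40.6) in 1C and 8CB embryos, with an overlap near 55 to 60 CPM (log2 1.496 ± 0.24, edgeR adjusted p = 9.97e-06). Idh3b, the most abundant of the 45 genes, had a log2 fold change of 0.20 ± 0.15 (adjusted p = 0.304). Idh3g, the gamma subunit, had 0.0015 ± 0.22 (adjusted p = 0.997). Idh3a thus went from a median of 3.60% to 8.05% of the UMIs of the 3 subunits, while Idh3b held 85.5% and 81.7%.

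The 2-oxoglutarate dehydrogenase and succinyl-CoA steps that follow also rose in part. Dlst, the E2 subunit of 2-oxoglutarate dehydrogenase, ranged from 42.1 to 87.7 CPM (median 61.7) against 5.77 to 56.4 CPM (median 18.8), with 2 of the 12 1C and 8CB embryos inside the upper range (log2 1.45 ± 0.28, edgeR adjusted p = 9.54e-05). Ogdh rose by 0.78 ± 0.25 (adjusted p = 0.00957), from a median of 238 to 442 CPM. Suclg1, the alpha subunit common to both succinyl-CoA ligases, rose by 0.94 ± 0.22 (adjusted p = 7.10e-04), from a median of 163 CPM (54.9 to 348) to 339 CPM (264 to 438). Sucla2, the beta subunit of the ADP-forming ligase, had 0.23 ± 0.22 (adjusted p = 0.417). Suclg2, the beta subunit of the GTP-forming ligase, missed the filter with 193 and 33 UMIs (ratio 2.59, 1.79 to 3.87), and its highest embryo was again 4CB embryo 6, at 138 CPM.

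Cs, citrate synthase, which opens the cycle, had medians of 267 and 226 CPM and a log2 fold change of 0.27 ± 0.18 (edgeR adjusted p = 0.214). Mdh2, which closes it, rose by 0.73 ± 0.16 (adjusted p = 3.18e-04), from a median of 545 CPM (377 to 775) to 932 CPM (581 to 1451).

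Mdh1, the cytosolic malate dehydrogenase of the malate-aspartate shuttle, also rose. It ranged from 119 to 367 CPM (median 224) in 2CB and 4CB embryos and from 8.02 to 154 CPM (median 44.3) in 1C and 8CB embryos, with 1C embryo 5 and 8CB embryo 1 inside the upper range. Mdh1 was 4.04-fold higher in 2CB and 4CB embryos (log2 2.02 ± 0.34, edgeR adjusted p = 1.30e-05), and its median share of malate dehydrogenase UMIs was 20.3% there and 6.997% in 1C and 8CB embryos. Idh1 and Idh2, the cytosolic and mitochondrial NADP-dependent isocitrate dehydrogenases, were not called, at 0.41 ± 0.27 and -0.23 ± 0.31 (adjusted p = 0.218 and 0.573). Me2, the mitochondrial malic enzyme, had 63 and 5 UMIs (ratio 5.59, 2.27 to 17.8).

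**Figure D4:**
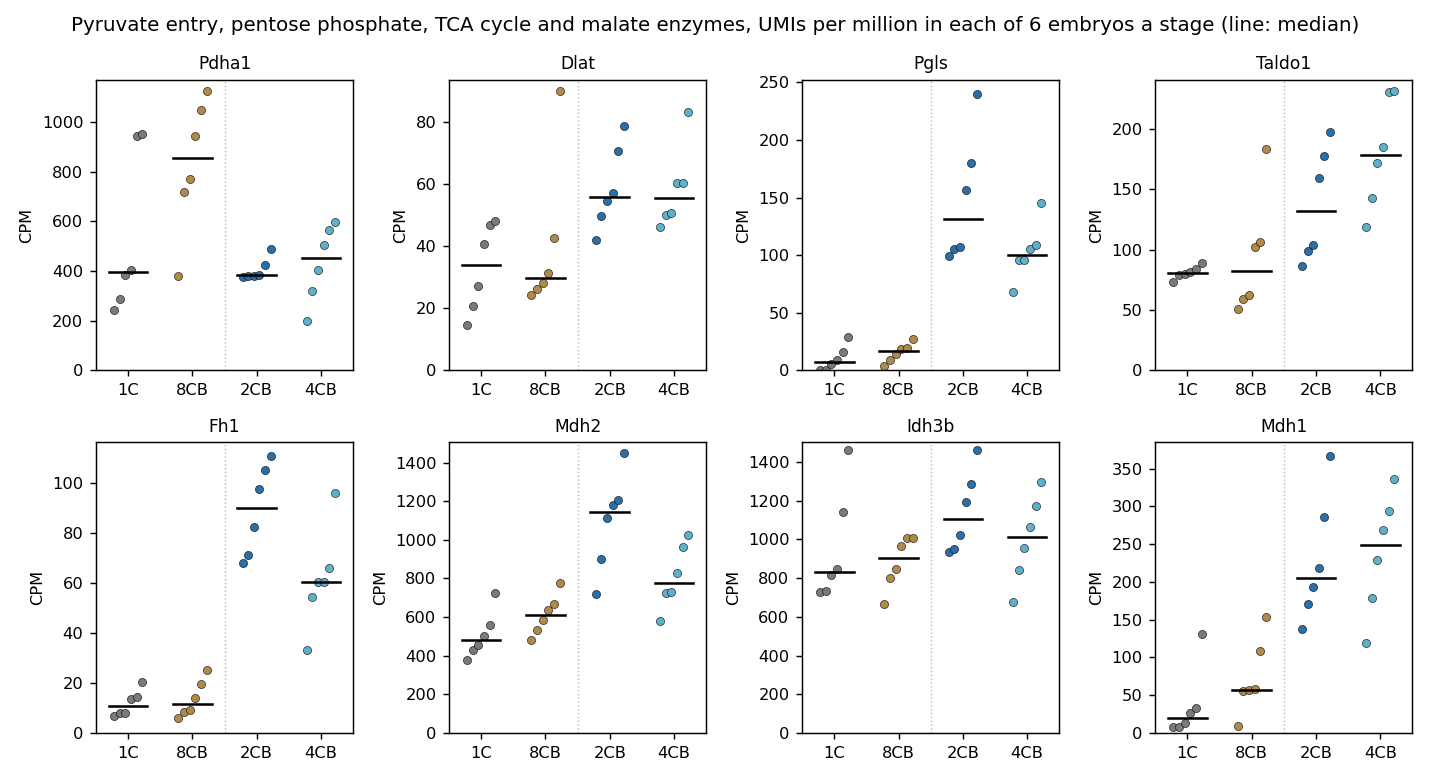
CPM (vertical axes) of 8 enzymes of pyruvate entry, the pentose phosphate pathway, the TCA cycle and malate metabolism in each embryo by stage (horizontal axes), with the median of 6 embryos as a line and a dotted line between the library pools. Pgls and Fh1 separate all 12 2CB and 4CB embryos from the others, Pdha1 is highest in 5 of the 8CB and 2 of the 1C embryos, and Idh3b overlaps across all 4 stages.

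Summed over each group, the same embryos stood apart. The 14 glycolytic genes together had a median of 1241 CPM (876 to 1625) in 2CB and 4CB embryos and 549 CPM (364 to 748) in 1C and 8CB embryos. The 11 TCA cycle genes had 3668 CPM (2853 to 4236) against 2414 CPM (2004 to 2852), so the lowest embryo of the first side lay just above the highest of the second. The 7 pentose phosphate genes had 647 CPM (521 to 814) against 408 CPM (296 to 550), with a small overlap. Pyruvate entry stood at 563 CPM (356 to 844) against 937 CPM (356 to 1264), but the 2 stages of the second side differed. By stage the medians were 517 CPM in 1C, 556 CPM in 2CB, 636 CPM in 4CB and 1006 CPM in 8CB embryos, so 1C embryos had the lowest. This sum is mostly Pdha1: without it the medians of the 2 sides were 162 and 115 CPM. These sums are descriptions of the chosen genes and were not tested.

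**Figure D5:**
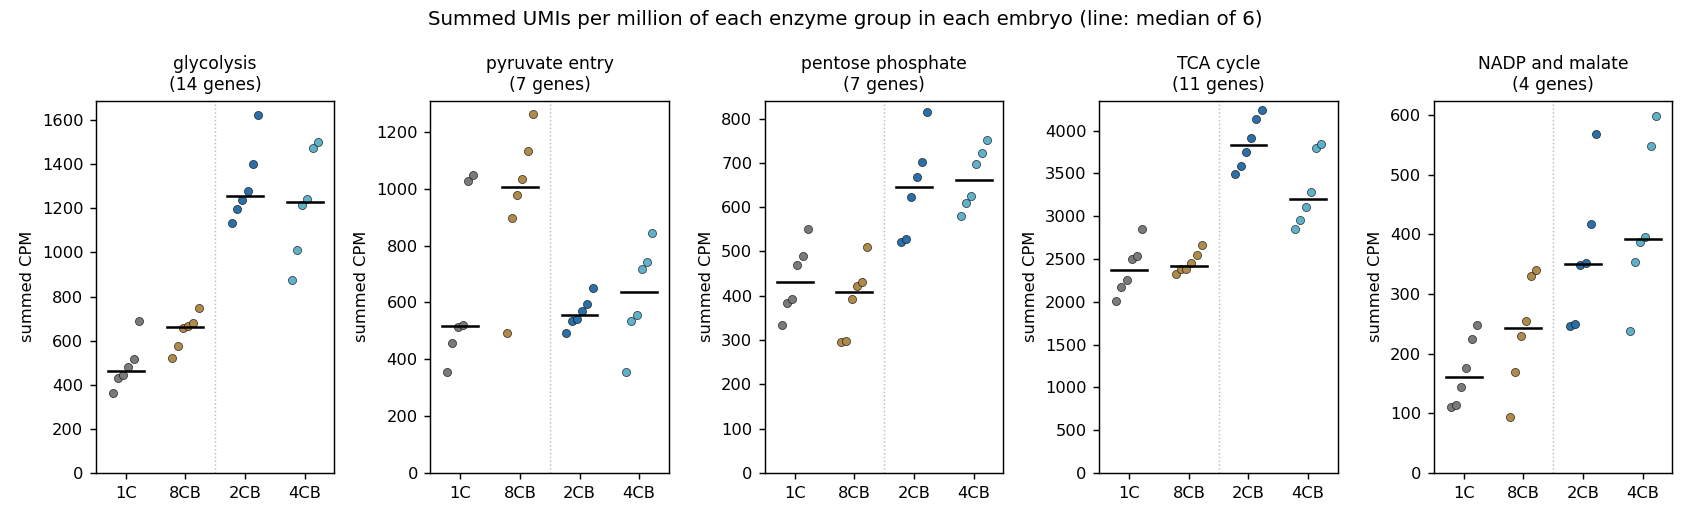
Summed CPM (vertical axes) of 5 enzyme groups in each embryo by stage (horizontal axes), with the median of 6 embryos as a line and a dotted line between the library pools. Glycolysis sums of 2CB and 4CB embryos lie at 876 CPM or more and those of 1C and 8CB embryos at 748 or less, while the median pyruvate entry sum is highest in 8CB embryos.

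Within a library pool no enzyme was called. For 8CB against 1C, 0 of the 33 were called by edgeR's quasi-likelihood test or by DESeq2, against 0% of all tested genes. An unadjusted edgeR p below 0.05 was held by 0 of the 33 and by 550 of all 5940 tested genes. Log2 fold changes of the 33 ran from -1.46 to 1.16 and 26 were positive, with standard errors from 0.22 to 1.01. Their median was 0.28, against 0.0019 over all tested genes. Pdha1 came nearest, with a median of 395 CPM in 1C and 856 CPM in 8CB embryos (log2 0.63 ± 0.33, edgeR adjusted p = 0.556). Mdh1 stood at 0.94 ± 0.50, Pgk1 at 1.05 ± 0.58 and Aldoa at 0.55 ± 0.30, with edgeR adjusted p from 0.569 to 0.582. For 4CB against 2CB, 0 of 33 were called by either tool, against 0.0337% of all tested genes. Their log2 fold changes ran from -0.69 to 0.76, and 1 had an unadjusted p below 0.05: Mdh2 had a median of 1146 CPM in 2CB and 779 CPM in 4CB embryos (-0.47 ± 0.22, edgeR adjusted p = 1.00). In that comparison 263 of all 5940 tested genes had an unadjusted edgeR p below 0.05. The median standard error was 0.41 for 8CB against 1C and 0.35 for 4CB against 2CB. Log2 fold changes of -1.46 and 1.16 in the former and of -0.69 and 0.76 in the latter were not called. With 6 embryos a stage these tests could thus miss changes well above 1 standard error.

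Across the pools each comparison by itself gave a similar count. For 2CB against 1C, 20 enzymes were called, 18 higher and 2 lower, where 41.5% of all tested genes were called, 24% higher and 17.5% lower. For 4CB against 8CB, 21 were called, 17 higher and 4 lower, where 40.2% of all tested genes were called, 23.2% higher and 17% lower. Of the 21 enzymes at the floor on both sides, 9 were higher and 1 lower for 2CB against 1C, that is 42.9% and 4.76%, against 17.9% and 18.8% of all genes that did so. For 4CB against 8CB 9 were higher and 2 lower (42.9% and 9.52%), against 17% and 19.1%. After thinning to the smallest total 13 and 11 of the 33 were called in these comparisons, and the full-depth shares above are no background for these counts. The 2 comparisons share no embryo. Hk1 was lower by -3.28 ± 0.50 and -3.06 ± 0.51, and Hk2 was higher by 3.02 ± 0.31 and 2.35 ± 0.31 (edgeR adjusted p from 4.13e-08 to 4.16e-05). Cs was called for 2CB against 1C alone (0.61, edgeR adjusted p = 0.0561) and Pdha1 and Pdhb for 4CB against 8CB alone (-1.01 and -1.15, edgeR adjusted p = 0.0186 and 0.0966). The difference between the 2 comparisons, in which the pool cancels, was called for 0 of 33 enzymes by edgeR and by DESeq2. It was called for 0% of all tested genes. An unadjusted edgeR p below 0.05 was held by 2 of the 33 enzymes and by 532 of all 5940 tested genes. The 2 enzymes were Mdh2 (0.75 ± 0.31) and Tpi1 (1.85 ± 0.83), with edgeR adjusted p of 0.486 and 0.510. In the joint test of the 4 stages 21 enzymes were called, against 47.1% of tested genes.

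The enzymes varied somewhat less from embryo to embryo than tested genes in general. The biological coefficient of variation estimated by edgeR had a median of 0.370 over the 33 enzymes and 0.417 over all tested genes, and 33.6% of tested genes lay below the former. Dlst, Idh3b and Mdh2 were the steadiest at about 0.27, and Rpe (0.550) and G6pdx (0.526) the most variable. These values also depend on level and were not tested.

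Genes next to these pathways, from 8 lists written beside the 45, were counted in the same test, in which 31.3% of all tested genes were higher and 24% lower. Of the 24 that were higher 9 had reached the filter's floor only among 2CB and 4CB embryos, and of the 13 that were lower 4 only among 1C and 8CB embryos. Of the other TCA cycle and succinate dehydrogenase genes, 7 of 11 tested were higher and 2 lower. Sdha, the flavoprotein of succinate dehydrogenase, rose by 2.07 ± 0.29, and Glud1, glutamate dehydrogenase, by 1.85 ± 0.25, while Dhtkd1 fell by 2.21 on the log2 scale (edgeR adjusted p from 6.69e-07 to 1.32e-05). Of these, Sdha had passed the filter through 2CB and 4CB embryos alone and Dhtkd1 through 1C and 8CB embryos alone. Of the shuttle genes 6 of 8 were higher and 1 lower: Slc25a1, the mitochondrial citrate carrier, rose by 5.74 ± 0.62, Slc25a13, an aspartate-glutamate carrier of the malate-aspartate shuttle, by 1.63 ± 0.33, and Gpd1l fell by 3.70 on the log2 scale. Slc25a1 had 464 UMIs in 2CB and 4CB embryos and 9 in 1C and 8CB embryos, so the size of its change is known only roughly. It had also passed the filter through 2CB and 4CB embryos alone.

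Of 5 glucose and monocarboxylate transporters tested, 3 were higher and 1 lower. Slc16a1, a lactate and pyruvate transporter, rose by 1.43 ± 0.38, and Slc2a3, the glucose transporter of blastocyst trophectoderm, by 0.81 ± 0.32, while Slc2a8 fell by 0.85 on the log2 scale (edgeR adjusted p from 0.00266 to 0.0405). Of 7 glycogen genes 2 were higher and 1 lower: Pygb, brain-type glycogen phosphorylase, rose by 4.15 ± 0.51 and Ugp2 by 1.57 ± 0.20, and Pgm2l1 fell by 1.49 on the log2 scale. The Pygb value rests on 532 and 13 UMIs and is likewise rough. Pygb had passed the filter through 2CB and 4CB embryos alone and Pgm2l1 through 1C and 8CB embryos alone. Of 8 transcriptional regulators 3 were higher and 0 lower, and all 3 had passed the filter through 2CB and 4CB embryos alone. Ppargc1b rose by 3.09 ± 0.46, with 281 UMIs there and 15 in 1C and 8CB embryos, and Hif1a, a subunit of hypoxia-inducible factor, by 2.40 ± 0.38, with 632 and 49 (edgeR adjusted p = 2.74e-06 and 7.10e-06).

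More genes were lower than higher in the lists of nucleotide sugars and pyruvate dehydrogenase regulators. Of 6 tested genes of nucleotide sugar and phosphoribosyl synthesis 4 were lower and 1 higher. Gnpnat1 and Uap1, enzymes of the hexosamine pathway, fell by 3.46 and 1.91 on the log2 scale, and Ogt, which uses its product, rose by 0.78 ± 0.23 (edgeR adjusted p from 2.56e-07 to 0.00632). Of these, Uap1 had passed the filter through 1C and 8CB embryos alone. Of 3 other pyruvate dehydrogenase genes 2 were lower: Pdp2, a phosphatase that switches the complex on, fell by 1.70 and Lias, which makes its lipoate, by 1.08 on the log2 scale. Of 5 other glycolytic and gluconeogenic genes 2 were higher and 2 lower. Adpgk, which had passed the filter through 2CB and 4CB embryos alone, rose by 1.03 ± 0.38. Tigar, a phosphatase that restrains glycolysis, fell by 1.92 and Galk1 by 0.66 on the log2 scale.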

How the data were processed

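Each embryo's RNA was barcoded and sequenced by the CEL-Seq2 protocol. Per the labels and the study's methods, the authors aligned reads to GRCm38 with HISAT2 2.2.6, counted with HTSeq 0.6.1 and tested with DESeq2 1.10.1. The deposited values are whole-number UMI counts per gene and embryo, before normalization. The annotation release and strand setting are not given in the sources used here, and a largest count of 53029 exceeds the 4096 sequences of a 6-base UMI, so values may not be distinct molecules. All 37 mitochondrially encoded genes are listed at 0 and add nothing to the totals. The table also holds 24 columns that match no listed sample and were not used. Symbols for 51719 of 52366 genes came from GENCODE M21, in which the 47734 genes matched on both identifier and version lay at the same start and end.

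Total counts per embryo were 70941 to 1507471. Counts were scaled by TMM (factors 0.928 to 1.07), filtered with filterByExpr (5940 genes kept) and fitted with edgeR 4.0.16 in R 4.3.3, with 1 mean per stage over all 24 embryos and called at a p below 0.1 after Benjamini-Hochberg adjustment. The contrasts were the mean of 2CB and 4CB minus the mean of 1C and 8CB, pairs of stages, their interaction and a joint test of the 4 stages. Standard errors were derived from the F statistic. Intervals of pooled ratios are exact binomial ones (SciPy 1.17.1) and cover counting error only. Copies of the last 500 bases of each enzyme's transcripts were sought with BLAST 2.17.0 (at least 100 bases at 95% identity), and promoters came from RefSeq. The script was tested on simulated counts.

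Every one of the 45 enzymes was accounted for. Values were given in full for up to 3 called enzymes each way per pathway and for isoenzyme sets, and for other lists at most 2 called genes each way with a mean of at least 20 CPM, except that some such genes are not reported here. The enzymes and lists were chosen with earlier results of these data known. Alternatives were DESeq2 1.42.0, its size factors in edgeR, no filter, a stricter filter (5 UMIs or more in 12 embryos), an adjusted p below 0.05, only the embryos compared, thinning to the smallest total, the embryo number as a block, and leaving out each embryo, 1C embryos 4 and 5 together, or the shallowest embryo. Thinning with the full-depth filter's genes, and ratios of untested enzymes without each embryo, were added after the data were seen.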

Additional observations from a re-analysis of the deposited data

Results flagged for a closer look

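Each gene with UMIs in at least 3 of the 6 embryos of a stage, 5 group sums and the Hk2 share were checked for an embryo far from the other 5 by Dixon's test. Of 179 groups of 6 embryos, 14 held such an embryo (7.82%), where chance gives about 1 in 20 for normally distributed values. Small counts are not so distributed. The explanations were not tested.

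In 1C embryos, embryo 4 stood apart with Pfkl at 16.2 CPM and an Hk2 share of 53.8% of hexokinase UMIs. That Pfkl value was 2 UMIs in a total of 123594, and embryo 6 also had 2 Pfkl UMIs, at 5.77 CPM. Embryo 5 was high for Mdh1, at 131 CPM where the next embryo had 32.6 CPM, and for Sucla2, at 111 CPM. Embryo 2 was high for Dlst at 56.1 CPM and for Idh2 at 192 CPM, and embryo 6 for G6pdx at 34.6 CPM.

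In 2CB embryos, embryo 4 had Pfkp at 38.7 CPM and embryo 6 had Pkm at 9.01 CPM, below the 43.2 CPM of the next. In 4CB embryos, embryo 6 had Pdk1 at 52.7 CPM, against 3.62 CPM in the next embryo, and Suclg2 at 138 CPM, and embryo 3 had Tkt at 277 CPM. In 8CB embryos, embryo 1 was high for Tpi1 at 47.7 CPM and for Dlat at 89.7 CPM. Leaving out any 1 of these embryos kept Mdh1, Pfkl, Tpi1, Pkm, Dlat, G6pdx and Dlst higher in 2CB and 4CB embryos at an edgeR adjusted p below 0.1.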

How the results depend on the processing

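Over the 33 tested enzymes and 34 alternatives, 1035 of 1103 log2 fold changes kept their direction and their side of the threshold, and 23 enzymes did so throughout. With each embryo thinned to the smallest total, only 14 enzymes passed the filter and the counts of called enzymes fell to 9 among the 4 stages, 9 higher in 2CB and 4CB, 8 for 2CB against 1C and 8 for 4CB against 8CB. On the genes that passed at full depth, thinning left 13 and 11 for the last 2 comparisons. Leaving out 1 embryo at a time gave 20 to 22 enzymes among the 4 stages, 19 to 21 higher, 3 to 4 lower, 17 to 21 for 2CB against 1C, 19 to 22 for 4CB against 8CB and 0 throughout for 8CB against 1C, 4CB against 2CB and the difference between comparisons. Embryos sharing a number did not deviate together (mean correlation -0.015 over 36 pairs, -0.247 to 0.223), and with the number as a replicate block the counts were 20, 20, 3, 21 and 19 in the same order. All of these are counts of enzymes, given without the shares of all tested genes in the same fits. The 4 enzymes nearest 0, none of them called, changed sign. Without the embryo of lowest total Pgd was -0.078, Rpe -0.041 and Idh3g -0.093. Without 1C embryos 4 and 5 Pgd was -0.021, Tkt 0.044 and Idh3g -0.137. Tkt was 0.095 and 0.050 in the 2 thinned fits, and Idh3g -0.021 with no filter, -0.044 with the stricter filter and -0.0079 with the block. Leaving out 1 embryo moved Pgd from -0.17 to 0.13, Rpe from -0.11 to 0.27, Tkt from -0.20 to 0.00056 and Idh3g from -0.13 to 0.077. With thinning on the full-depth genes Pgam1, Dlat, Dld and Rpia stood at -0.70, 0.71, 0.64 and 0.84 and were no longer called (adjusted p 0.235, 0.139, 0.142 and 0.130), and Idh3b was called in the thinned fit with its own filter (0.35, adjusted p 0.0726). The cause of these changes was not tested.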
